A study of Canis lupus familiaris with 18 samples.

Results

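The 9 genes described here, ABRA, ALPK2, YWHAQ, ANKHD1, ANTXR2, TSPAN2, CTH, CYP1B1 and FAR2, were picked from earlier results of these data because their signal was higher in the right ventricle (RV) of dogs after 2 weeks of rapid ventricular pacing than in control RV. They were read from all probe sets (groups of short probes read as 1 value) that carry 1 of these symbols alone in the platform annotation. This gave 23 of the 42924 probe sets on the array, for 9 of the 15115 genes named that way. A filter on low mean signal kept 18 of the 23, with at least 1 for each gene. The RV early and RV control arrays chose the genes, so their values are given as a description with no test. Only contrasts without those 2 groups were tested for the 9 genes. The arrays of those 2 groups still entered the variance pooled over all arrays, and so each SE and p-value.

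The study measured total RNA from snap-frozen pieces of right atrium (RA) and RV of adult dogs on Affymetrix Canine_2 arrays. Each chamber had 3 groups of 3 arrays: controls, for which the labels state no pacing time, early heart failure (HF) after 2 weeks of ventricular tachypacing, and late HF after 5 weeks. The protocol text gives a wider span for both stages, and the animals were mongrels or beagles with the breed, age and sex of each not stated. Replicates are labelled biological, but no animal is identified, so the spread behind each p-value is that between these arrays and may be partly technical. RA and RV arrays of a stage may come from the same dogs. Pacing was from the ventricle in every HF group.

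Fast pacing stretches and overloads the heart and, over weeks, dilates it and weakens its beat. Heart muscle answers load with changes in sarcomere and cytoskeletal genes, partly through the actin-sensing MRTF and SRF transcription factors and the Hippo pathway's coactivator YAP, while fibroblasts lay down matrix. The 9 genes do not form a single pathway. They include an actin-binding activator of SRF (ABRA), an alpha kinase (ALPK2), a 14-3-3 adaptor (YWHAQ), a scaffold protein with ankyrin repeats (ANKHD1), 2 membrane proteins (ANTXR2 and TSPAN2) and 3 enzymes (CTH, CYP1B1 and FAR2).

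Values are log2 signal, so a difference of 1 is a 2-fold difference, and each is given for replicates 1, 2 and 3 in that order. For genes with several probe sets, the one with the highest mean over the 18 arrays stands for the gene, and levels of different probe sets are not compared with each other. The probe sets of a gene are numbered by mean signal, brightest first. Array medians lay between 5.65 and 5.75. The library labelled RA late 3 carried RV markers. Its signal of MYL2, the ventricular regulatory light chain, was 14.17, against 10.99 and 10.59 in the other RA late arrays and a mean of 14.15 in RV controls. The RA control mean of MYL2 was 7.31, so the other RA late arrays also lay above it. MYL4, the atrial essential light chain, was 11.65 in the library labelled RA late 3, against 13.89 and 14.05 in the other RA late arrays. The RA control mean of MYL4 was 14.01. Results that use RA late arrays are therefore given with and without that library. RV late 1 also stood apart, with a summed signal of ventricular myocyte markers of 34500, against 60000 and 59900 in RV late 2 and 3. In bulk tissue, fewer cells of a type and less RNA per cell cannot be told apart.

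In the ventricle at 2 weeks, all 9 genes had every early HF array above every control array. Over all 25752 probe sets tested, 7.35% were ordered in this way, and nothing is read from the members' count because the same arrays chose them. Over all probe sets, 24 were called higher at an adjusted p under 0.05, which is 0.0932%. The differences of the 9 genes ran from 0.97 for ALPK2 to 1.88 for CTH with a median of 1.36, beside a median of -0.01 over all probe sets. At 5 weeks the median over the 9 genes was 0.50 relative to control. Of the 9, 5 (CYP1B1, ANTXR2, YWHAQ, ANKHD1 and FAR2) had every late HF array above every control array, as 9.04% of all probe sets did. The RV control arrays helped to choose the genes, so nothing is read from this count or this median. From early to late HF, 7 of the 9 had every late array below every early array, where 6.91% of all probe sets did. The exceptions were ANTXR2, whose ranges overlapped, and CYP1B1, whose means differed by 0.04. Of the 1894 probe sets with every RV early array above every RV control array, 71.5% had a lower mean in late than in early HF (the 9 genes were chosen for a high early value, so nothing is read from this order).

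**Figure D1:**
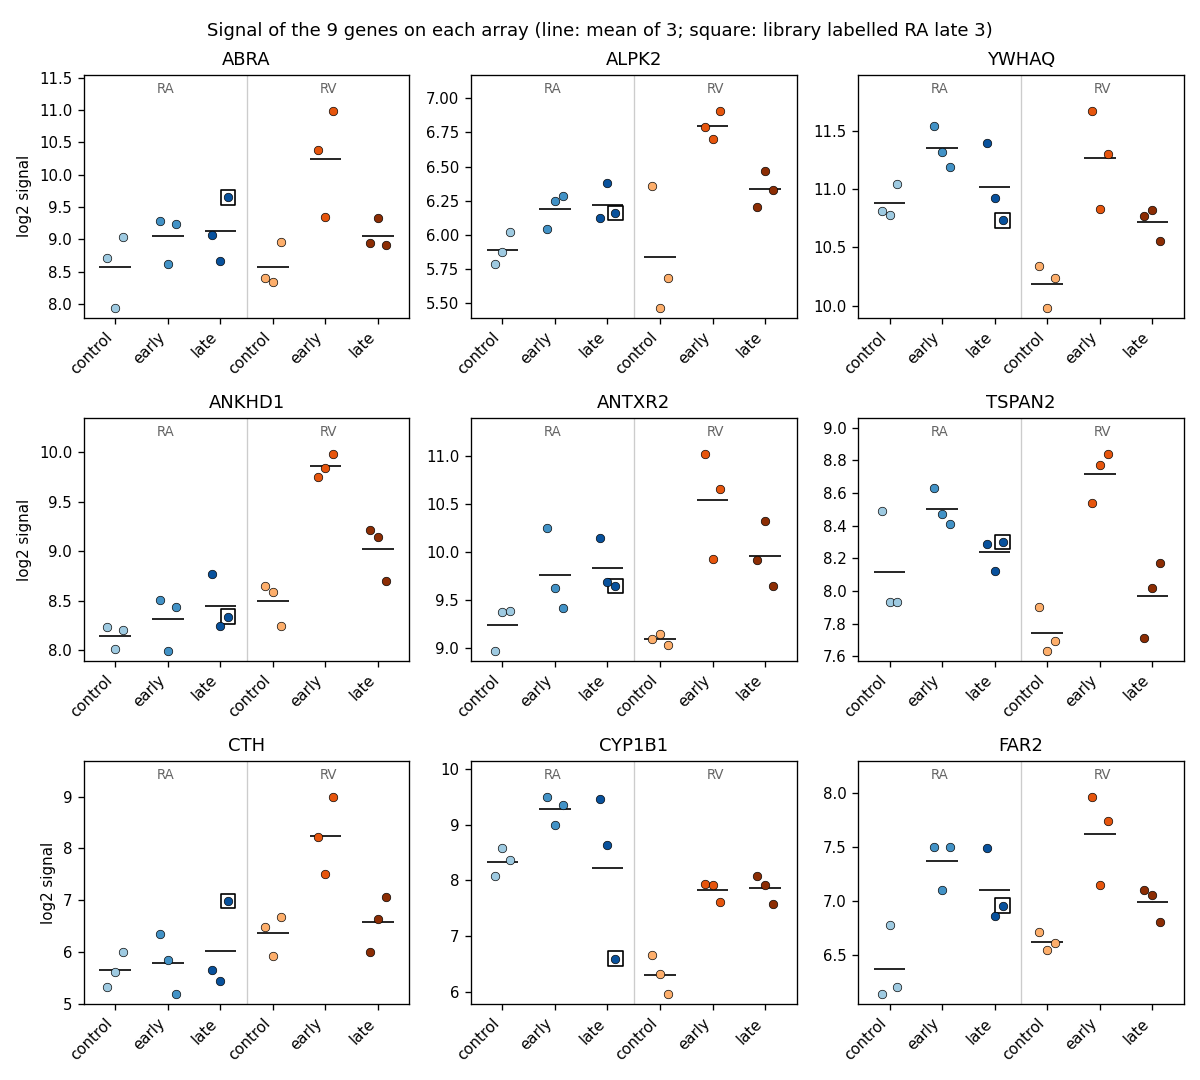
Log2 signal of the probe set that stands for each of the 9 genes on each of the 18 arrays, by chamber and stage; points are arrays, lines are means of 3, and the square marks the library labelled RA late 3. RV early arrays lie above RV control arrays in every panel, and RV late arrays lie below RV early arrays except for CYP1B1 and in part ANTXR2.

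ABRA, also known as STARS, is a striated muscle protein that binds actin and promotes SRF-dependent transcription. Its signal in RV was 8.41, 8.35 and 8.96 in controls, 10.38, 9.35 and 10.99 in early HF and 8.94, 9.33 and 8.91 in late HF. In RA it was 8.72, 7.94 and 9.04 in controls, 9.28, 8.62 and 9.24 in early HF and 9.07, 8.67 and 9.65 in late HF. All early RV arrays were higher than any control array, by 1.67 on average (3.17-fold), while early array 2 lay 1.64 below early array 3. RV early HF had the highest mean of the 6 groups, 10.24 ± 0.83, but its range reached into that of RA late HF (9.13 ± 0.49), and each lower neighbour in the order also overlapped with the next (SD, n = 3 each). ABRA probe set 2 gave 7.27, 7.31 and 7.55 in RV controls, 8.93, 7.94 and 9.48 in early HF and 7.91, 7.77 and 7.52 in late HF. It too was higher on all early arrays than on any control array, and early array 2 was again the lowest of the early arrays.

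ALPK2 encodes an alpha kinase, and zebrafish studies tie it to heart development. It had 1 probe set, of low signal: 6.36, 5.46 and 5.68 in RV controls, 6.79, 6.70 and 6.91 in early HF and 6.20, 6.47 and 6.33 in late HF. RA arrays gave 5.78, 5.87 and 6.02 in controls, 6.04, 6.25 and 6.28 in early HF and 6.12, 6.38 and 6.16 in late HF. The early RV arrays were the 3 highest of all 18, within 0.21 of each other. RV control 1 lay closer to the late arrays than to the other control arrays, and control and late ranges overlapped. RV early HF averaged 6.80 ± 0.11, apart from RV late HF at 6.33 ± 0.14, and the 2 control groups were lowest and overlapped, at 5.89 ± 0.12 in RA and 5.83 ± 0.47 in RV (SD, n = 3 each).

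YWHAQ encodes 14-3-3 theta, an adaptor that binds phosphorylated proteins. Its signal in RV was 10.34, 9.98 and 10.24 in controls, 11.67, 10.83 and 11.30 in early HF and 10.77, 10.82 and 10.55 in late HF. In RA it was 10.81, 10.78 and 11.04 in controls, 11.54, 11.32 and 11.19 in early HF and 11.39, 10.92 and 10.73 in late HF. The 3 RV control arrays were the lowest of all 18, and the RV early difference was 1.08 (2.11-fold). RA early HF had the highest mean, 11.35 ± 0.18, and overlapped with RV early HF at 11.27 ± 0.42. Only the gap between RV late HF (10.71 ± 0.14) and RV controls (10.19 ± 0.19), at the bottom of the order, was free of overlap between neighbours (SD, n = 3 each). YWHAQ probe set 2 gave 7.47, 7.19 and 7.21 in RV controls, 8.05, 7.41 and 7.74 in early HF and 7.91, 7.35 and 7.06 in late HF. Its early difference was 0.44, and early array 2 fell within the control range. Of 2 probe sets annotated to YWHAQ together with LOC479459, and so no members, 1 averaged 9.09 in RV early HF and 7.83 in RV controls, and the other, of low signal, 5.22 in RV early HF and 5.26 in RV controls.

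ANKHD1 encodes a scaffold protein with ankyrin repeats and a KH domain, whose fly counterpart Mask works with the YAP homologue Yorkie. Its 7 probe sets disagreed. Probe set 1 gave 8.65, 8.59 and 8.24 in RV controls, 9.75, 9.84 and 9.98 in early HF and 9.21, 9.14 and 8.70 in late HF. In RA it gave 8.23, 8.01 and 8.20 in controls, 8.51, 7.99 and 8.44 in early HF and 8.77, 8.24 and 8.34 in late HF. Here the 3 RV stages were separate in every array, with early HF (9.86 ± 0.12) above late HF (9.02 ± 0.28) and late HF above control (8.49 ± 0.22; SD, n = 3 each). The RA groups followed in the order late, early and control. Neighbours in this order overlapped, while RA late and RA control ranges did not.

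ANKHD1 probe set 3 had the same order in RV, with 7.55, 7.20 and 6.78 in controls, 9.12, 9.21 and 9.62 in early HF and 8.17, 8.35 and 7.44 in late HF, although control and late ranges overlapped. Its RV early difference of 2.14 was the largest of any member probe set. The other 4 ANKHD1 probe sets above the filter differed by between -0.20 and 0.14 in the same contrast. Probe set 2, for example, gave 7.58, 7.64 and 7.54 in RV early HF, against 7.85, 7.81 and 7.71 in RV controls, with every early array below every control array, as in 8.46% of all probe sets. Over the 18 arrays, which share these groups, probe set 1 correlated at r = 0.981 with probe set 3 and at r = -0.502 with probe set 2. The early RV difference was thus present in 2 of the 6 ANKHD1 probe sets above the filter, and the label of a gene that rose early in RV rests on those 2. The gene next to ANKHD1 among protein-coding genes in RefSeq's assembly UU_Cfam_GSD_1.0 is EIF4EBP3, and 0 probe sets carry its symbol alone. Which transcripts each ANKHD1 probe set measures was not tested.

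**Figure D2:**
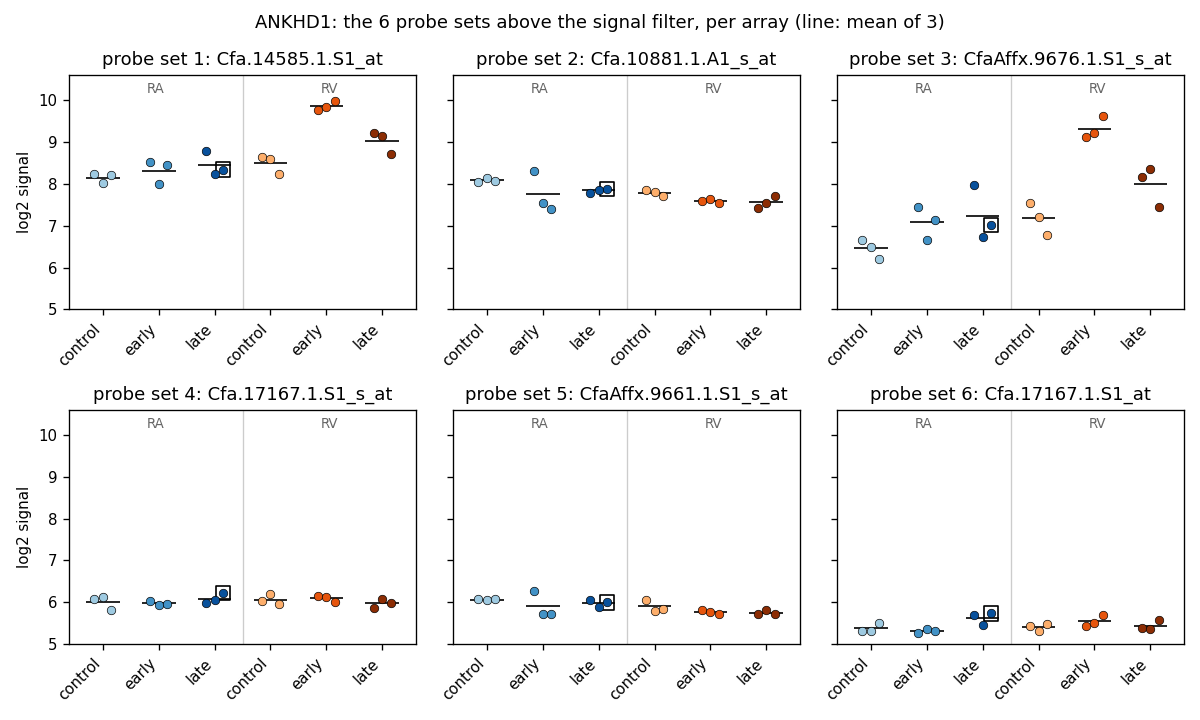
Log2 signal of the 6 ANKHD1 probe sets above the signal filter on each array, on 1 common vertical scale; points are arrays, lines are means of 3, and the square marks the library labelled RA late 3. Probe sets 1 and 3 stand high in RV early HF, and the other 4 stay nearly level.

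ANTXR2 encodes a membrane receptor for anthrax toxin that binds collagen IV and laminin and takes part in clearing collagen VI. Its single probe set gave 9.10, 9.15 and 9.03 in RV controls, 11.02, 9.93 and 10.66 in early HF and 9.92, 10.32 and 9.65 in late HF. The RA signal was 8.97, 9.38 and 9.39 in controls, 10.25, 9.63 and 9.42 in early HF and 10.15, 9.69 and 9.65 in late HF. All 6 paced RV arrays were higher than the 3 RV controls, and early array 2 lay within the late range. The 4 HF groups formed a run of overlapping neighbours, with RV early HF at 10.54 ± 0.56 on top and RA early HF at 9.77 ± 0.43 at its end. Both control groups lay below it, at 9.25 ± 0.24 in RA and 9.09 ± 0.06 in RV (SD, n = 3 each).

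TSPAN2 encodes a tetraspanin, a membrane protein that organises other membrane proteins, known in vascular smooth muscle and in oligodendrocytes. Its brightest probe set gave 7.90, 7.63 and 7.69 in RV controls, 8.54, 8.77 and 8.84 in early HF and 7.71, 8.02 and 8.17 in late HF. In RA it gave 8.49, 7.93 and 7.93 in controls, 8.63, 8.47 and 8.41 in early HF and 8.29, 8.12 and 8.30 in late HF. RV early arrays were separate from both other RV stages, and RV late and RV control ranges overlapped. RV early HF (8.72 ± 0.16) overlapped with RA early HF (8.50 ± 0.11), and both early groups lay above RA late HF (8.24 ± 0.10) in the order (SD, n = 3 each). TSPAN2 probe set 2 showed the RV early difference too, at 1.18, with 7.82, 8.02 and 8.47 in early HF, against 7.04, 6.64 and 7.10 in RV controls. TSPAN2 probe set 3 lay below the filter.

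CTH encodes cystathionine gamma-lyase, which makes cysteine in the transsulfuration pathway and also yields hydrogen sulfide. Its brightest probe set gave 6.48, 5.93 and 6.68 in RV controls, 8.22, 7.51 and 8.99 in early HF and 6.00, 6.64 and 7.07 in late HF. RA arrays gave 5.33, 5.62 and 5.99 in controls, 6.34, 5.85 and 5.18 in early HF and 5.65, 5.44 and 6.98 in late HF. The RV early difference of 1.88 (3.67-fold) was the largest of the 9 representative probe sets, and 2 of the 3 late arrays lay within the control range, while late array 3 lay above it. RV early HF, at 8.24 ± 0.74, stood apart from the other 5 groups, which overlapped as neighbours in the order between 6.57 ± 0.54 in RV late HF and 5.65 ± 0.33 in RA controls (SD, n = 3 each). The library labelled RA late 3 was the highest of the 9 RA arrays for CTH, within the RV late range. The other 3 CTH probe sets fell below the filter. Among them CTH probe set 3 was higher on the early arrays, at 5.51, 4.86 and 5.80 in RV early HF, against 4.46, 4.41 and 4.38 in RV controls. CTH probe set 4 also had every early array above every control array, by 0.40 on average, and probe set 2 differed by 0.04.

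CYP1B1 encodes a cytochrome P450 that oxidises oestrogens and fatty acids and is induced through the aryl hydrocarbon receptor. Its brightest probe set gave 6.66, 6.32 and 5.96 in RV controls, 7.93, 7.92 and 7.61 in early HF and 8.08, 7.92 and 7.58 in late HF. In RA it gave 8.07, 8.58 and 8.36 in controls, 9.49, 8.99 and 9.34 in early HF and 9.45, 8.64 and 6.60 in late HF. It is the only gene of the 9 whose RV late mean was not below its RV early mean, with a difference of 0.04 between them. It was also higher in RA than in RV: RA control arrays averaged 2.02 above RV control arrays (4.07-fold), and RA early HF averaged 1.45 above RV early HF, with no overlap in either. Such separation with RA on top was found for 13% of all probe sets in controls and 10.7% in early HF. RA early HF (9.27 ± 0.26) had the highest mean and RV controls (6.31 ± 0.35) the lowest, but RA late HF overlapped with RA early HF through array 1 and with RV controls through the library labelled RA late 3 (SD, n = 3 each). The value of 6.60 in the library labelled RA late 3 lay 2.04 below the next RA late array and within the RV control range. The second probe set had the same order of stage means in RV at smaller size, with 6.77, 6.59 and 6.09 in RV early HF, against 6.02, 5.87 and 5.70 in RV controls. In RA the order of the second probe set differed with all arrays, since its late mean lay above its control mean. Without the library labelled RA late 3, the RA late mean lay above the RA control mean in both probe sets. The differences were then 0.71 for the brightest and 0.73 for the second.

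FAR2 encodes a peroxisomal enzyme that reduces fatty acyl-CoA to fatty alcohol. Its single probe set gave 6.72, 6.55 and 6.61 in RV controls, 7.96, 7.15 and 7.74 in early HF and 7.10, 7.06 and 6.81 in late HF. The RA signal was 6.14, 6.78 and 6.21 in controls, 7.50, 7.10 and 7.50 in early HF and 7.49, 6.86 and 6.96 in late HF. The 3 RV stages were separate, early HF highest and control lowest, and every paced RA array was above every RA control array. RV early HF (7.62 ± 0.42), RA early HF (7.37 ± 0.23), RA late HF (7.10 ± 0.34) and RV late HF (6.99 ± 0.16) overlapped as neighbours and lay above RV controls (6.63 ± 0.09), which overlapped with RA controls (6.38 ± 0.35; SD, n = 3 each).

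Over the 18 probe sets above the filter, 13 had every RV early array above every RV control array, and the 5 others were 4 of ANKHD1 and 1 of YWHAQ. Of the 6 genes with more than 1 probe set, ABRA, TSPAN2 and CYP1B1 had the early difference in each probe set above the filter. For ANTXR2, ALPK2 and FAR2 a single probe set is all there is. Within RV early HF, array 2 was the lowest of the 3 for 6 of the 9 genes and the highest for 0. Its mean over the 9 genes lay 0.975 above RV controls, against 1.45 for array 1 and 1.53 for array 3. Summed fibroblast marker signal was 8720 to 10200 in RV early HF, against 6370 to 6900 in RV controls. Summed adipocyte marker signal was 8880 in RV early array 2, the array lowest for most of the 9 genes, and 3450 and 3960 in RV early arrays 1 and 3, against 2810 to 4160 in RV controls. The 5 Schwann cell and neuron markers on the array summed to 304 to 343 in RV early HF, against 607 to 893 in RV controls. Most of this list did not share the drop: the median difference over the 5 markers was -0.02, with 1 called lower by limma. The part of these cell types in the values of the 9 genes was not tested.

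**Figure D3:**
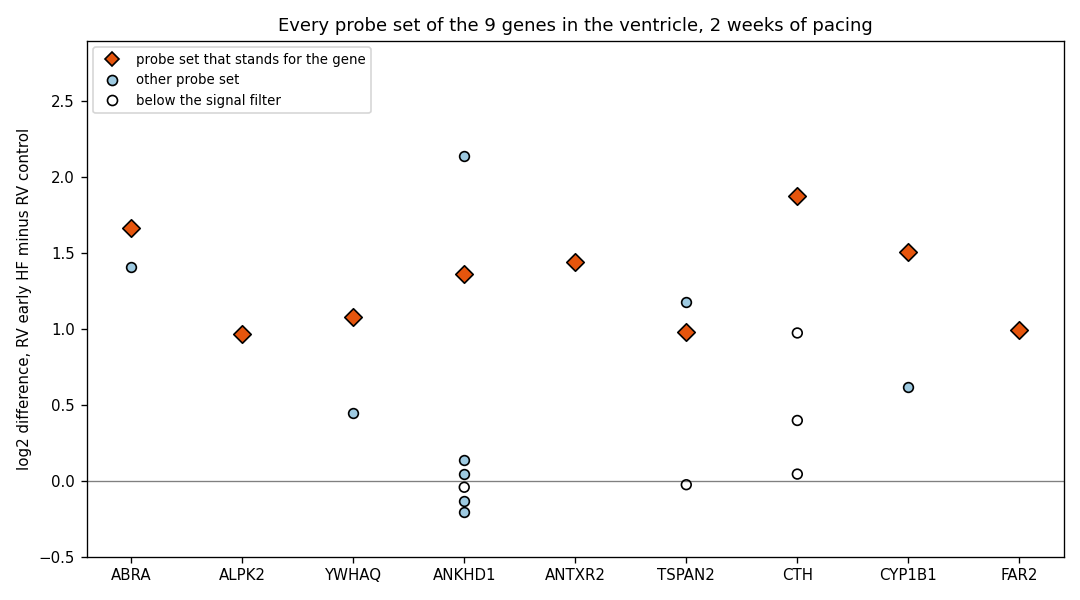
Difference in log2 signal between the means of 3 RV early HF arrays and 3 RV control arrays for all 23 probe sets; diamonds stand for the gene, blue points are its other probe sets and open points lie below the signal filter. ANKHD1 runs from -0.20 to 2.14, and YWHAQ and CYP1B1 each have a second probe set with a smaller difference.

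The atrium of the same stages asks whether the genes differ with pacing on arrays other than those that chose them. In controls and early HF, RA and RV arrays with the same number deviated together from their group means (correlations of 0.151 to 0.421 over probe sets), so the RA arrays may come from the dogs whose RV arrays chose the genes, and the RA values may not be independent of that choice. The fit does not model this pairing. At 2 weeks, read from the probe set that stands for each gene, the RA difference was positive for all 9 genes. It lay between 0.14 for CTH and 0.99 for FAR2, with a median of 0.47 beside -0.02 over all probe sets. In RA early HF, FAR2 rose by 0.99 (SE 0.21, n = 3 each, 1.99-fold) relative to RA controls, with an adjusted p of 0.0389 by limma. It was the only gene of the 9 past the threshold, where 0.307% of all probe sets were called higher. The call of FAR2 needed every array: with any 1 of the 6 RA early or RA control arrays left out, it missed the threshold, with adjusted p-values of 0.0528 to 0.162 and differences of 0.87 to 1.19. Its adjusted p was 0.0186 when the library labelled RA late 3, part of this contrast only by way of the pooled variance, was dropped.

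CYP1B1 was higher on each RA early array than on each RA control array, by 0.94 (1.91-fold). Its SE was 0.46 with an adjusted p of 0.379, and without the library labelled RA late 3 its SE was 0.22 with an adjusted p of 0.0297. The second CYP1B1 probe set differed by 0.84, with an adjusted p of 0.209, or 0.0162 without that library. Without it 2 of the 9 genes were therefore called, where 1.63% of all probe sets were called higher. ANTXR2 differed by 0.52 (adjusted p 0.389), ABRA by 0.48 (0.636), YWHAQ by 0.47 (0.275), TSPAN2 by 0.39 (0.264) and ALPK2 by 0.30 (0.463), none past the threshold. ANKHD1 differed by 0.17 (adjusted p 0.776) and CTH by 0.14 (adjusted p 0.937), with overlapping arrays in both. ANKHD1 probe set 3 differed by 0.63 in RA early HF (adjusted p 0.375), also with overlap. ANKHD1 probe sets 2, 4, 5 and 6 had differences below 0, at -0.33, -0.03, -0.16 and -0.07, none past the threshold. Counted by arrays alone, 5 genes (FAR2, CYP1B1, ANTXR2, YWHAQ and ALPK2) had every RA early array above every RA control array, which 8.7% of all probe sets had.

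Summed signal of the 10 fibroblast markers was 18500 to 35400 in RA early HF, against 11200 to 12500 in RA controls. That of the 10 macrophage markers was 3060 to 5230, against 1930 to 2220, and that of the 10 endothelial markers 3150 to 4100, against 2340 to 2650. Atrial myocyte markers summed to 42600 to 44000 in RA early HF, against 50400 to 52500 in RA controls. The mean GAPDH 3' minus 5' signal, a sign of RNA quality, was 1.46 in RA early HF and 1.32 in RA controls. The part of these in the RA values of FAR2, CYP1B1 and the other genes was not tested.

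At 5 weeks in RA, 0 of the 9 genes passed the threshold by limma, with the library labelled RA late 3 or without it. With all arrays, 2 had an unadjusted p under 0.05, as did 11.7% of all probe sets. At the adjusted threshold 0.0699% of all probe sets were called, or 1.65% without that library. FAR2 differed by 0.73 (SE 0.21, adjusted p 0.227), with every RA late array above every RA control array, and by 0.80 without that library (adjusted p 0.087). ANTXR2, ANKHD1 and ALPK2 also had every late array above every control array, so 4 genes did, where 6.16% of all probe sets did. Their differences were 0.58, 0.30 and 0.33. ANKHD1 probe set 3 differed by 0.78 (SE 0.30, adjusted p 0.349), or 0.89 without that library (adjusted p 0.171), with every late array above every control array. ANKHD1 probe set 2 differed by -0.24, with every late array below every control array, as in 6.22% of all probe sets. With all arrays, probe sets 4, 5 and 6 differed by 0.08, -0.08 and 0.24, with overlap. The values of 2 genes turned on that library: CYP1B1 differed by -0.11 with it and 0.71 without it (adjusted p 0.139), and CTH by 0.38 with it and -0.10 without it. ABRA differed by 0.56, or 0.30 without that library, with overlapping arrays. YWHAQ differed by 0.14 (0.28 without it) and TSPAN2 by 0.12 (0.09 without it). Summed fibroblast marker signal was 29800, 14900 and 8020 in RA late HF, against 11200 to 12500 in RA controls, with the lowest value in the library labelled RA late 3, and its part in these values was not tested. Between RA late and RA early HF, 0 probe sets of any gene were called by limma, and 2068 (8.03%) had an unadjusted p under 0.05.

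**Figure D4:**
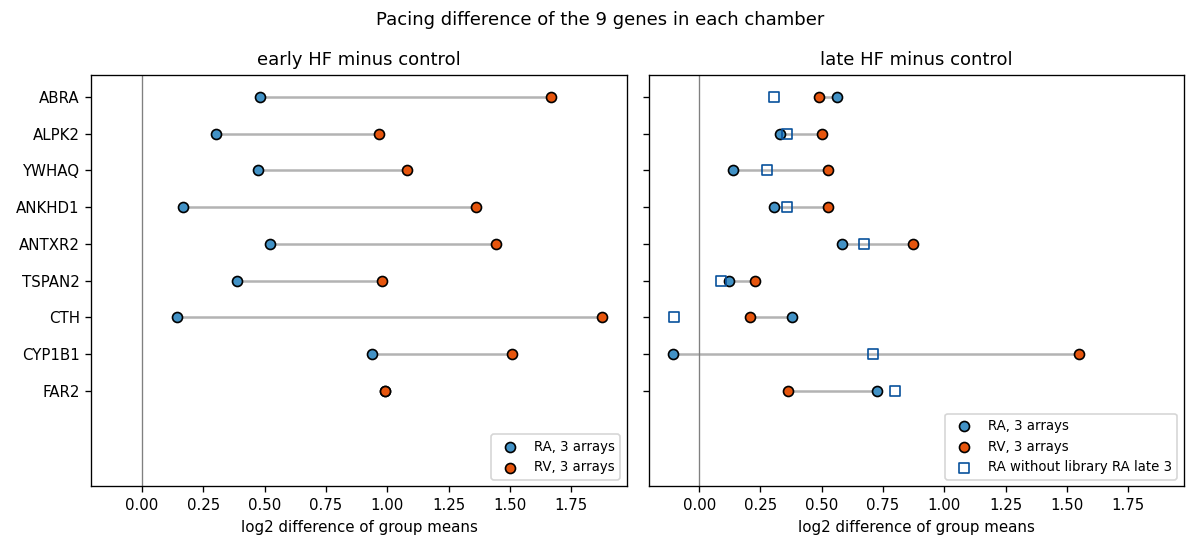
Difference in log2 signal between HF and control group means of the probe set that stands for each gene, in RA (blue) and RV (orange), at early HF (left) and late HF (right); open squares give RA without the library labelled RA late 3. At early HF, RV exceeds RA for every gene but FAR2, where both are 0.99, and at late HF CYP1B1 and CTH in RA change sign without that library.

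Set side by side, and read from the probe set that stands for each gene, the early differences in RA were below those in RV for 8 of the 9 genes and equal for FAR2, but the RV values chose the genes, so this order was not tested. The gap was 1.73 for CTH, 1.20 for ANKHD1 and 1.19 for ABRA, and 0.57 for CYP1B1. The second CYP1B1 probe set had the reverse order, with 0.84 in RA and 0.62 in RV. Levels at early HF differed in the same sense for 4 genes. RA early HF minus RV early HF was -2.45 for CTH, -1.54 for ANKHD1, -1.19 for ABRA and -0.61 for ALPK2, with every RA array below every RV array. This count of 4 genes stands beside 11.6% of all probe sets, and nothing is read from it because the RV early arrays chose the genes. CYP1B1 went the other way, at 1.45 with every RA array above every RV array, beside 10.7% of all probe sets. YWHAQ was nearly level between the chambers at early HF, with a difference of 0.08. In controls every RA array was above every RV array for YWHAQ, by 0.69, as in 13% of all probe sets. YWHAQ probe set 2 differed by 0.20 in controls, with overlapping ranges. The RV control arrays helped to choose the genes, so nothing is read from the differences between chambers in controls. ANTXR2, ABRA, ALPK2, FAR2 and CTH had overlapping ranges between RA and RV controls, and TSPAN2 was 0.38 higher in RA controls with no overlap. ANKHD1 differed by -0.35 in RA controls relative to RV controls, also with no overlap, as in 13.6% of all probe sets. Its nearest arrays were close, at 8.23 in RA and 8.24 in RV. ANKHD1 probe set 3 differed in the same sense, by -0.72 with no overlap. Probe set 2 went the other way, at 0.29 with every RA control array above every RV control array. Probe sets 4, 5 and 6 had overlapping ranges.

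Late HF allows a test of RA against RV in which the arrays that chose the genes enter neither group mean. They enter only by way of the pooled variance. With all arrays, 0 of the 9 genes differed at the threshold by limma, where 0.0272% of all probe sets did. At an unadjusted p under 0.05 there was 1 gene, ANKHD1, beside 11.8% of all probe sets. Without the library labelled RA late 3, CYP1B1 was higher in RA late HF than in RV late HF by 1.19 (SE 0.25, adjusted p 0.0161), where 3.15% of all probe sets were called. Its second probe set was higher by 0.84 (adjusted p 0.028). With that library, the CYP1B1 difference was 0.37 (SE 0.46, adjusted p 0.76). CTH differed by -0.55 with all arrays (SE 0.42, adjusted p 0.611), with overlapping ranges. Without that library it was lower on both RA late arrays than on any RV late array, with a difference of -1.02 (SE 0.39, adjusted p 0.149). ANKHD1 differed by -0.57 with all arrays (adjusted p 0.313) and by -0.51 without that library (adjusted p 0.152). With all arrays, ANKHD1 probe set 3 differed by -0.75 (adjusted p 0.384). ANKHD1 probe sets 2, 4, 5 and 6 went the other way, at 0.28, 0.10, 0.23 and 0.18, none past the threshold. In probe sets 2 and 5 every RA array was above every RV array, as in 6.62% of all probe sets. With all arrays, the remaining 6 genes lay between -0.13 and 0.30. Fibroblast markers summed to 8020 to 29800 in RA late HF, against 11300 to 14100 in RV late HF, and its part in the CYP1B1 values was not tested.

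Few other genes of the members' pathways and families passed the test. The 9 lists held 107 other genes with a tested probe set, and in RA early HF 1 rose and 0 fell, where 0.307% of all probe sets rose and 0.505% fell. The gene was ACTA1, skeletal alpha-actin and a target of SRF, from the list around ABRA. It averaged 14.13 in RA early HF and 13.02 in RA controls, a rise of 1.10 (SE 0.16, n = 3 each, adjusted p 0.00605), and passed with each RA early or RA control array left out (adjusted p at most 0.0455). It also rose by 1.00 in RA late HF (adjusted p 0.0253), but missed the threshold without RA control 1, RA control 2 or RA late 1 (highest adjusted p 0.188). In RV, where its level was 14.25 in early HF and 14.09 in controls, ACTA1 differed by 0.16. Both RV levels lay near 14.49, the highest value in the data, and whether this limits the RV difference was not tested. FHL1, a LIM protein of the same list, differed by 0.68 in RA early HF (adjusted p 0.121) and by 1.10 in RV early HF, with means of 11.49 in RV early HF and 10.39 in RV controls.

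Among the matrix partners of ANTXR2, 0 of 8 tested genes were called in RA early HF with all arrays. Without the library labelled RA late 3, the share of all probe sets called higher went from 0.307% to 1.63%, and 2 of the 8 genes were called higher. These were the basement membrane collagens COL4A1, which differed by 1.45 (adjusted p 0.0683, or 0.00975 without it), and COL4A2, by 1.19 (adjusted p 0.059, or 0.0115 without it). In RV early HF the same genes differed by 0.23 and 0.02. Among 18 tetraspanins besides TSPAN2, 0 were called with all arrays and 1 without that library, the lysosomal CD63, at 0.49 (adjusted p 0.0168), while CD151, a partner of laminin-binding integrins, differed by 0.49 (adjusted p 0.0943 without it). Of 23 genes of sulfur amino acid metabolism and its stress response, 0 were called with all arrays. Without that library 1 was lower, the cytosolic transaminase GOT1, at -0.54 (adjusted p 0.0167, where 1.59% of all probe sets were called lower), and CDO1, which oxidises cysteine, differed by 1.00 (adjusted p 0.0878).

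The other 5 lists had 0 genes called in RA early HF with or without that library. Of 16 Hippo and YAP pathway genes, the smallest p-values were those of TEAD4, a DNA-binding partner of YAP, at 0.40 (adjusted p 0.167), and ANKRD1, a YAP target in the sarcomere, at 0.71 (adjusted p 0.212). CCN2, a matricellular growth factor on the same list, had a larger difference of 1.78 in RA early HF without being called. In RV early HF it differed by 2.62. Of 5 other 14-3-3 genes these were YWHAZ at 0.43 (adjusted p 0.304) and YWHAG at 0.40 (adjusted p 0.491), and in RV early HF they differed by 0.62 and 0.56. Of 2 other alpha kinases, TRPM6, a channel kinase, differed by 0.14 (adjusted p 0.718) and EEF2K, which acts on elongation factor 2, by -0.04 (adjusted p 0.929). Of 7 aryl hydrocarbon receptor pathway genes besides CYP1B1, the receptor's co-chaperones PTGES3 and HSP90AB1 differed by 0.33 (adjusted p 0.373) and -0.22 (adjusted p 0.445). Of 9 ether lipid genes, FAR1, the paralogue of FAR2, differed by -0.30 (adjusted p 0.358) and CEPT1, a phospholipid-making transferase, by 0.35 (adjusted p 0.419).

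Over the 18 arrays the 9 genes were alike to different degrees. Of the 36 pairs, 24 had a Pearson r above 0.5 and 3 were negative. ANTXR2 and FAR2 were closest (r = 0.84), followed by ABRA and CTH (0.80), ANKHD1 and CTH (0.78), and YWHAQ and CYP1B1 (0.77), while CTH and CYP1B1 had r = -0.37. The arrays share chamber and stage, and the genes were chosen on 6 of them, so these values are a description. The other genes most like each member were sought among 10979 genes by r over the same arrays. ABRA was most like CAVIN4, a muscle caveolar protein (r = 0.90), and ANKRD13C (0.88). YWHAQ was most like CCN2, a matricellular growth factor (0.92), and DAXX (0.90). CCN2 averaged 10.53 in RV early HF and 7.91 in RV controls, a difference of 2.62.

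ANTXR2 was most like WIPI1, an autophagy protein (r = 0.94), and SLMAP, a membrane protein of heart muscle (0.92), and CTH like LMO7 (0.90) and YLPM1 (0.89). CYP1B1 was most like BTG3 (0.95) and EFEMP1, an extracellular matrix protein (0.94), and FAR2 like CD151 (0.91) and the integrin subunit ITGB1 (0.90). ANKHD1 was most like STRADB (0.88) and the prostaglandin receptor PTGER4 (0.88), ALPK2 like MXI1 (0.82) and the transglutaminase TGM2 (0.80), and TSPAN2 like LMOD2, an actin filament protein of the sarcomere (0.75), and SMARCA5 (0.72). TSPAN2 thus had the weakest closest neighbour of the 9 genes and CYP1B1 the strongest.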

How the data were processed

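The files hold the authors' deposited log2 signal for each probe set, a unit inferred from values of 2.43 to 14.49. MAS5 is named without a version, scale or target in the submitters' processing notes. These values were used as deposited. Of 43035 probe sets, 111 controls were left out, and the lowest 40% by mean over the 18 arrays were dropped (limit 5.31), which left 25752. Of the 42924 probe sets on the array, 29254 have 1 gene symbol in the platform annotation, 439 have several and 13231 have none.

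A model with 1 mean for each of 6 groups was fitted over all 18 arrays with limma 3.58.1 in R 4.3.3 (12 residual degrees of freedom, trended prior, two-sided). Benjamini-Hochberg adjustment ran over all 25752 probe sets, with a threshold of 0.05. Figures were drawn with Python 3.11.15, matplotlib 3.10.9, numpy 2.4.6 and pandas 2.3.3. The fit was tested on simulated data.

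The members, the lists and the tests were chosen with earlier results of these data known. Named genes are the 9 members, list genes past the threshold in a tested RA contrast or otherwise the 2 of smallest p in RA early HF, and the 2 genes most like each member. Beyond this rule, COL4A1, COL4A2, CD63 and GOT1 are described by their values without the library labelled RA late 3. RefSeq's table matched 8 of the 9 member symbols. Sequences and genome positions were not used here. Deviations from group means of RA and RV arrays with the same number correlated at 0.151 to 0.421 in controls and early HF and at -0.421 to 0.154 in late HF. Alternatives were no trend, other signal filters, quantile normalization, array weights, fits on the compared groups alone with and without a replicate block, each array left out, and other probe sets. The number of arrays limits the precision.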

Additional observations from a re-analysis of the deposited data

Results flagged for a closer look

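ANKHD1 probe set 6, numbered by mean signal, had differences of opposite sign in the chambers at early HF. Every RV early array lay above the RV control mean, with a difference of 0.14, and every RA early array lay below the RA control mean, with a difference of -0.07. HF and control arrays overlapped in both chambers, the SE of each difference was 0.10, and the RA difference had an adjusted p of 0.848 by limma. The difference between the chambers was not tested, and the probe set has a low signal.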

How the results depend on the processing

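Over 531 alternative values for the members, which leave out RA late against RA early HF because no single gene is reported for it, 471 kept their direction and side of the threshold, 35 turned direction (0 of these past the threshold) and the rest changed side or moved. Counts of probe sets past the threshold changed with several settings, and the cause was not tested. With array weights, whose estimate did not fully converge, the counts were 1279 for RA early HF against control (209 in the main analysis), 2578 for RA late HF against control (18), 2479 for RA late against RA early HF (0), 4853 for RA late against RV late HF (7), 384 for RV early HF against control (27) and 229 for RV late HF against control (0). With quantile normalization they were 420 in RA early HF and 62 in RV early HF. RV early HF gave 41 without a trend and 66 with the lowest 60% dropped, and RA late against RV late HF gave 3 with no filter. With only the 2 groups compared, the counts were 724 in RA early HF, 0 in RA late HF, 0 for RA late against RV late HF and 257 in RV late HF. With 1 array left out, counts ran from 20 to 829 in RA early HF, 1 to 425 in RA late HF, 0 to 88 for RA late against RA early HF, 1 to 811 for RA late against RV late HF, 0 to 306 for RV early HF against control, and 0 to 34 for RV late HF against control. The highest came without the library labelled RA late 3, except 88 without RA late 1 and 306 without RV early 2. Replicate numbers did not meet the rule for pairing stages within a chamber (every pair over 0.1): correlations ran from -0.0569 to -0.00127 for RA early HF and control and from -0.325 to 0.365 over all pairs of stages. A replicate block gave 792 in RA early HF, 1 in RA late HF, 0 for RA late against RV late HF, 12 in RV early HF and 454 in RV late HF. These fits hold only the 2 groups compared. In RA early HF, FAR2 and CYP1B1 were past the threshold both in the 2-group fit without the block (adjusted p 0.0232 and 0.0239) and with it (0.0385 and 0.0407). With array weights, FAR2 and ALPK2 passed in RA late HF, and ANKHD1, CTH and CYP1B1 in RA late against RV late HF.

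Directions turned mostly for ANKHD1 and for differences near 0. Other ANKHD1 probe sets gave -0.33, -0.03, -0.16 and -0.07 in RA early HF, -0.24 and -0.083 in RA late HF, 0.28, 0.10, 0.23 and 0.18 for RA late against RV late HF, -0.20 and -0.13 in RV early HF and -0.22, -0.08 and -0.15 in RV late HF. With array weights, TSPAN2 was -0.0032, CTH -0.16 and CYP1B1 0.28 in RA late HF, and ALPK2 was 0.046, ABRA -0.35 and FAR2 -0.12 for RA late against RV late HF. The second CYP1B1 probe set gave 0.22 in RA late HF. With 1 array left out, CTH ran from -0.13 to 0.45 in RA early HF, from -0.10 to 0.67 in RA late HF and from -0.043 to 0.49 in RV late HF. YWHAQ ran from -0.052 to 0.28 and CYP1B1 from -0.72 to 0.71 in RA late HF. For RA late against RV late HF, ANTXR2 ran from -0.29 to 0.045, ABRA from -0.19 to 0.30, CYP1B1 from -0.24 to 1.19 and FAR2 from -0.08 to 0.23.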
